A study of Polypedilum vanderplanki with 72 samples.

Results

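HSF1, heat shock factor 1, is a transcription factor that binds heat shock elements in the promoters of chaperone and other stress genes. In unstressed cells it is held inactive, and heat or other damage to proteins releases it to form trimers that switch these genes on. In the sleeping chironomid Polypedilum vanderplanki, an insect with larvae that can lose nearly all of their water and live, HSF1 is also known for its part in switching on genes of desiccation tolerance. Pv11 is a cultured cell line from this insect that survives drying after a period in trehalose.

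The comparison described here sets Pv11 cells without their own HSF1 that express the HSF1 isoform V1 (V1 cells) against cells with the same knockout and no HSF1 form added (KO cells), in 12 of the 72 polyA RNA libraries of the series. It was made in 2 treatments, with 3 libraries per group in each. At T48, V1 and KO cells had spent 48 h in a trehalose mixture of 600 mM. At HS6h, V1 and KO cells had received 6 h of heat shock, at a temperature that the labels do not give. The libraries were picked by these labels, with earlier results of these data known. Unmodified Pv11 cells (WT) under the same treatments served as a further reference. Knockout lines with the HSF1 isoform V2, V3, V4 or V5-6, or the Drosophila form Dma or Dmb, had both treatments too. Their libraries entered the fits that estimate the spread, and V1 is also set against each of these lines below. At R24, cells had been given 600 mM trehalose, dried for 11 days and sampled 24 h after water was given back. The R24 groups are V1, V2, V3, V4, V5-6 and WT cells. KO cells are not among them, so V1 was read against WT cells there. The modified cells are clonal lines in the labels, with a single line for V1, so the form and the clone cannot be told apart. Untreated cells are not among the samples analysed here. The labels do not say whether the libraries of a group came from separate cultures, and p-values measure only the spread between these libraries, which may be technical.

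Gene counts per library ran from 3676764 to 6416186 over the 12 libraries. Each V1 and KO library was on average closer to the other libraries of its group than it was to any V1, KO or WT library of another group. In HS6h V1 cells, library 48 stood further from libraries 46 and 47 (5.91 and 5.65 times the variance that counting alone gives) than these did from each other (2.68 times). The calls without it are given in the closing section, and no count of calls moved by more than 1.5 times. The gene IDs of the deposited table carry no names and match no reference entry, so the level of HSF1 and of its known targets could not be checked. Genes are therefore named by ID. Levels are in CPM, the count of a gene per 1e6 gene counts of its library, scaled between libraries by TMM. Differences are log2 ratios of V1 over KO with their standard error (SE), from edgeR's quasi-likelihood test with Benjamini-Hochberg adjustment over all genes tested.

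After 48 h in trehalose, V1 cells differed from KO cells in 3099 of 8258 genes tested at an adjusted p under 0.05. In V1 cells 1612 genes were higher (19.5% of those tested) and 1487 were lower (18%). Which direction held more calls depended on the scaling, because with the size factors of DESeq2's method (RLE) in edgeR 1523 were higher and 1583 lower. Of the called genes, 41.7% changed by less than 1.5-fold. At least 4-fold changes were found in 176 genes that were higher and 107 that were lower in V1 cells. The 176 genes together held little of the RNA in both groups, with 0.841 ± 0.022% of a library's gene counts in V1 cells and 0.118 ± 0.005% in KO cells (SD, n = 3 each). They were chosen as higher in V1 cells in these same libraries, so the higher V1 share follows from the choice.

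The gene with the largest rise in V1 cells at T48 was g6912. It had 225, 204 and 233 CPM in the 3 V1 libraries, against 0.461, 0.517 and 0.186 CPM in the KO libraries and 100.3, 97.1 and 89.8 CPM in the WT libraries. Every V1 library thus lay above every WT library, and every KO library was near 0. The rise of g6912 was not particular to V1 cells, with means of 265 CPM in V2 and 195 CPM in V3 cells. The other lines with an added HSF1 form had lower means, from 5.24 CPM in V4 to 60.1 CPM in V5-6 cells. The difference of V1 from KO was 9.13 (SE 0.21, adjusted p = 1.75e-56) and that of V1 from WT was 1.20 (SE 0.09, adjusted p = 9.18e-20). The next gene by the same rule, g240, had 13.5, 11.3 and 9.40 CPM in V1 libraries, no counts in any KO library, and 7.36, 10.6 and 15.2 CPM in WT libraries. The V1 and WT libraries overlapped, and against a floor of 3 counts over the 3 KO libraries g240 was at least 51.7-fold higher in V1 cells (adjusted p = 3.87e-18).

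On the lower side, g5365 had no counts in any V1 library at T48, against 4.84, 5.94 and 8.75 CPM in KO libraries and 7.88, 5.58 and 5.82 CPM in WT libraries. It was at least 33.0-fold lower in V1 than in KO cells (adjusted p = 8.99e-10) and at least 31.7-fold lower in V1 than in WT cells (adjusted p = 2.52e-09). The KO and WT libraries overlapped. The low level was not particular to V1 cells, because V2 and V3 cells, 2 other lines with an added HSF1 isoform, also had no counts of g5365 at T48, while V4 cells had a mean of 6.47 CPM. The second such gene, g3133, had 2 reads in V1 library 2 and none in the other V1 libraries, against 8.98, 5.69 and 5.96 CPM in KO libraries and 2.10, 4.19 and 3.04 CPM in WT libraries. With those 2 reads the ratio of KO over V1 was 50.7 (95% counting interval 13.6 to 424, adjusted p = 3.94e-10).

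After heat shock, 2732 of 8261 genes tested differed between V1 and KO cells, 1486 of them higher (18%) and 1246 lower (15.1%) in V1 cells. The split depended on the fit here too, with 1402 higher and 1345 lower under RLE scaling, and 1197 higher and 1220 lower when only the groups compared were fitted. Changes of less than 1.5-fold made up 43.2% of the calls. At least 4-fold changes were found in 237 genes that were higher and 84 that were lower in V1 cells. The 237 genes held 9.92 ± 0.26% of a library's gene counts in V1 cells and 0.316 ± 0.006% in KO cells (SD, n = 3 each). Here too the higher V1 share follows from the choice of the genes in these libraries, and only its size is informative. The genes with the greatest rises at HS6h thus took a far larger part of the V1 libraries than those at T48. The 10 most abundant genes of each library took from 16.9% to 18.0% of the counts in V1 cells and from 12.2% to 12.7% in KO cells.

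Of the genes that rose most, g241 had 1485, 1600 and 1748 CPM in V1 libraries at HS6h, against 0.256, 0 and 0 CPM in KO libraries and 1226, 1118 and 1368 CPM in WT libraries. A single read in 3 KO libraries gives a ratio of V1 over KO of 22028 (95% counting interval 3953 to 870111, adjusted p = 1.46e-52). Every V1 library lay above every WT library for g241, by a difference of 0.44 (SE 0.09, adjusted p = 6.54e-05). The gene g238 had 3458, 2998 and 3075 CPM in V1 libraries, against 0.256, 0.225 and 0.375 CPM in KO libraries and 2715, 2574 and 2430 CPM in WT libraries. Its difference of V1 from KO was 13.35 (SE 0.21, adjusted p = 6.99e-55), and that of V1 from WT was 0.36 (SE 0.09, adjusted p = 0.00074). For g240, named above at T48, heat-shocked V1 libraries had 7449, 6896 and 6322 CPM, against 0.768, 0.900 and 0.939 CPM in KO libraries and 5940, 5701 and 5646 CPM in WT libraries. Other lines had high levels of g240 at HS6h as well, with means of 6114 CPM in V2, 6524 CPM in V3, 6507 CPM in Dma and 2464 CPM in Dmb cells. V4 and V5-6 cells had means of 0.813 and 23.6 CPM.

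These 3 genes belong to an unbroken run of 7 ID numbers, g236 to g242, singled out here after the values were seen. All 7 were higher in V1 than in KO cells at HS6h, by 9.10 to 14.03 on the log2 scale, and all 7 were lower in KO than in WT cells. The most abundant of them, g239, had 30612 ± 2815 CPM in V1 cells, 9.85 ± 1.12 CPM in KO cells and 21856 ± 1212 CPM in WT cells at HS6h (SD, n = 3 each). Together the 7 genes held 3.27 ± 0.09% of the gene counts in V1 cells, 0.000953 ± 0.000088% in KO cells and 2.43 ± 0.12% in WT cells at HS6h (SD, n = 3 each). At T48 they held 0.00504 ± 0.00041% in V1 cells and 0.00531 ± 0.00075% in WT cells. There 4 of the 7 could be tested, and all 4 were higher in V1 than in KO cells. Whether these genes are near-identical copies that share reads could not be checked, so the split of counts among them is uncertain.

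**Figure D1:**
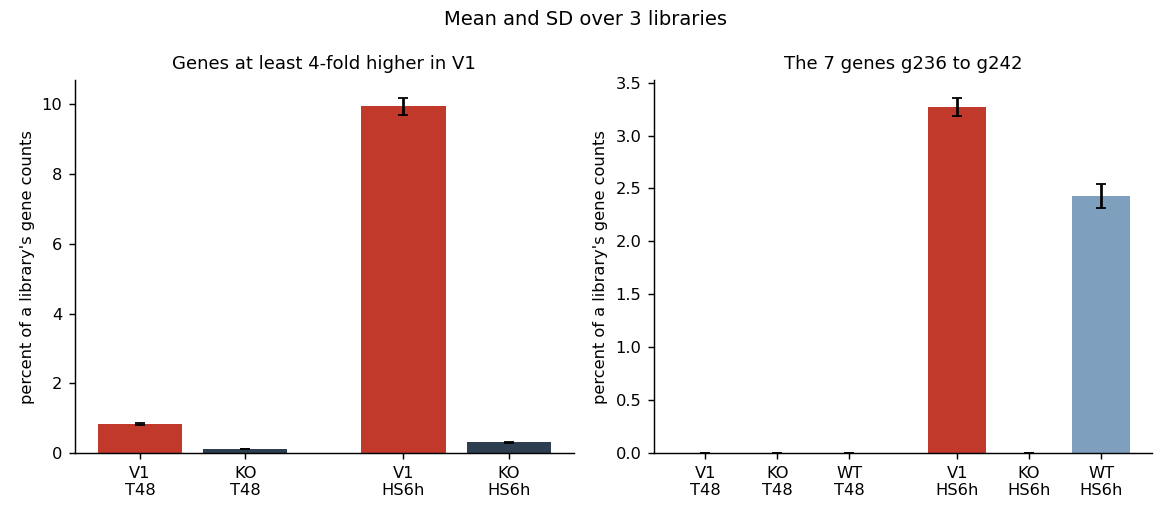
Percent of a library's gene counts, as bars for the mean and error bars for the SD over 3 libraries, held by the genes called at least 4-fold higher in V1 than in KO cells (left, 176 genes at T48 and 237 at HS6h) and by the 7 genes g236 to g242 (right). Heat-shocked V1 cells stand at 9.92% on the left and 3.27% on the right, KO cells at 0.316% and near 0, and the bars of T48 on the right are too low to see. The genes on the left were chosen as higher in V1 cells in the same libraries, so the direction of their difference was fixed by the choice.

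Among genes lower in V1 than in KO cells after heat shock, g3418 had 1.09, 0 and 1.08 CPM in V1 libraries, against 27.9, 34.0 and 36.2 CPM in KO libraries and 20.3, 22.4 and 17.2 CPM in WT libraries. It differed by -5.49 from KO (SE 0.41, adjusted p = 3.04e-18) and by -4.78 from WT (SE 0.43, adjusted p = 8.81e-15). Without V1 library 47, which held no counts of g3418, these differences were -4.81 and -4.11. The gene g5568 had 1.63, 1.72 and 0.807 CPM in V1 libraries, against 54.5, 62.8 and 54.6 CPM in KO libraries and 24.8, 18.3 and 30.2 CPM in WT libraries. Its difference from KO was -5.25 (SE 0.32, adjusted p = 1.07e-22). For both genes V1 cells lay below WT cells and KO cells above them, without overlap between libraries.

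**Figure D2:**
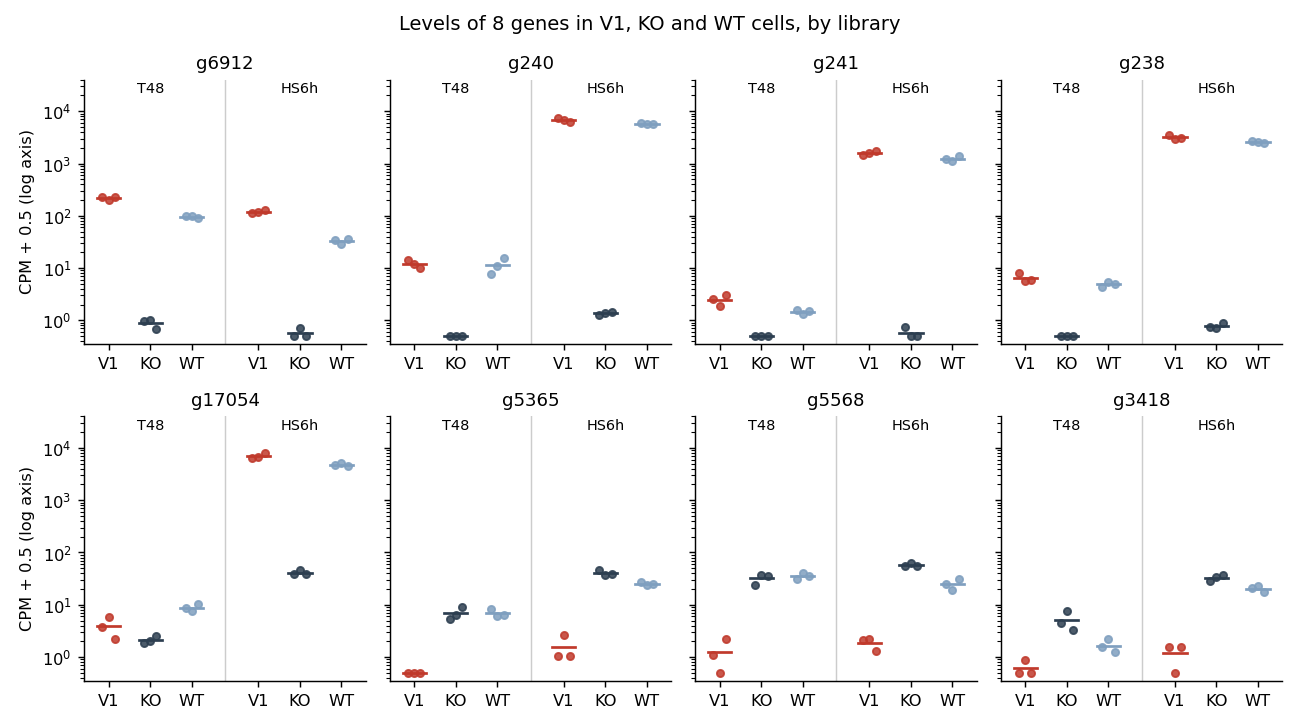
CPM plus 0.5 on a log axis in V1, KO and WT cells at T48 and HS6h, with a point per library and a line at the mean of 3, for 8 genes named in the text. The 5 genes g6912, g240, g241, g238 and g17054 are higher in V1 than in KO cells at HS6h, where KO libraries are at or below 45.2 CPM, and g5365, g5568 and g3418 are at or below 2.15 CPM in every V1 library.

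The 2 treatments used separate libraries of the same V1 and KO lines, so a gene's V1 effect could be read in each. Of 7825 genes tested in both, 676 were higher in V1 than in KO cells in both treatments and 615 were lower in both, while 199 were called in opposite directions. Of the genes higher in V1 cells at T48, 43.8% were also higher at HS6h, against 17.8% of all genes tested in both. Of those lower in V1 cells at T48, 42.4% were also lower at HS6h, against 15.6% of all. Read the other way, 48.6% of the genes higher at HS6h were higher at T48 (19.7% of all), and 50.5% of those lower at HS6h were lower at T48 (18.6% of all). Across the 7825 genes, which are not independent replicates, Pearson's r between the 2 sets of log2 differences was 0.60, and the points share the 2 lines.

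Ranked by the smaller of their 2 differences, g6912 and g240 led the genes that were higher in both treatments, and g5568 and g5365 those that were lower. At HS6h, g6912 had 112.8, 117.6 and 128.3 CPM in V1 libraries, against 0, 0.225 and 0 CPM in KO libraries and 33.4, 29.0 and 35.5 CPM in WT libraries. At T48, g5568 had 0.616, 0 and 1.67 CPM in V1 libraries, against 23.7, 36.2 and 35.0 CPM in KO libraries and 31.3, 40.2 and 35.2 CPM in WT libraries. The V1 libraries lay far below both other groups, which overlapped, and the difference from KO was -5.34 (SE 0.39, adjusted p = 9.31e-22). Without V1 library 3, which held the highest of the 3 V1 values, it was -6.57. The 6 other lines with an added HSF1 form were low in g5568 as well, with means of 1.81 to 6.18 CPM at T48. At HS6h, g5365 had 0.545, 2.15 and 0.538 CPM in V1 libraries, against 45.8, 37.1 and 38.5 CPM in KO libraries and 26.9, 23.1 and 24.7 CPM in WT libraries.

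**Figure D3:**
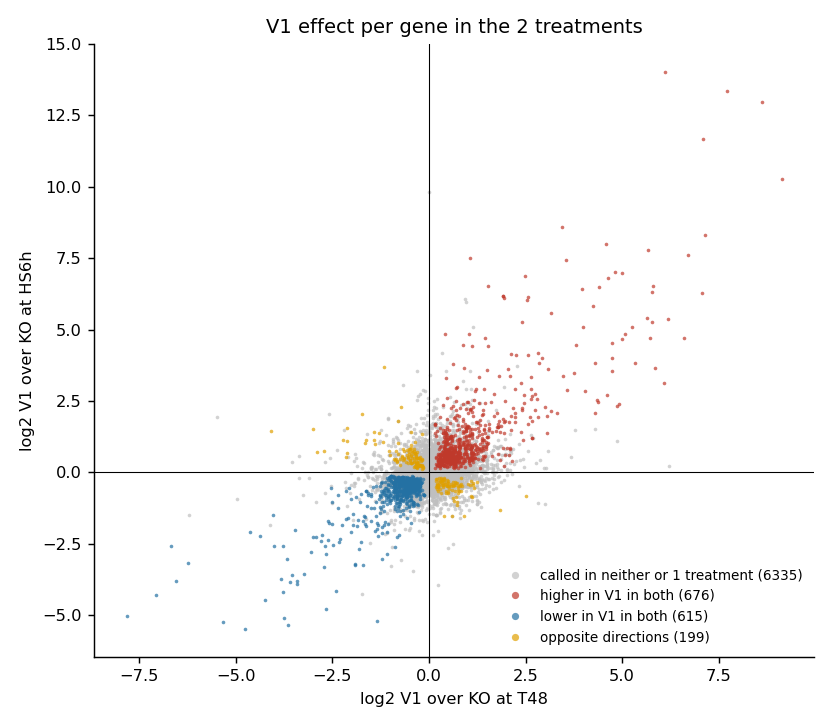
Log2 difference of V1 over KO cells at T48 (horizontal axis) and at HS6h (vertical axis) for the 7825 genes tested in both, with a point per gene. Red points are the 676 genes higher in V1 cells in both treatments, blue points the 615 lower in both and yellow points the 199 with opposite calls.

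The difference between the V1 effects of the 2 treatments was tested in a fit of all 72 libraries. Of 9231 genes tested, the V1 effect was higher at HS6h in 1005 (10.9%) and higher at T48 in 748 (8.1%). The clearest gene with a higher effect at HS6h was g17054. It had 6349, 6648 and 8070 CPM in V1 libraries at HS6h, against 37.9, 45.2 and 38.3 CPM in KO libraries and 4647, 5134 and 4607 CPM in WT libraries. At T48 it had 3.28, 5.45 and 1.67 CPM in V1 libraries, against 1.38, 1.55 and 2.05 CPM in KO libraries and 8.14, 6.98 and 9.87 CPM in WT libraries. V1 cells thus lay above WT cells at HS6h and below them at T48, and the effect was higher at HS6h by 6.45 (SE 0.78, adjusted p = 1.93e-10).

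The effect on g7411 had opposite directions in the 2 treatments. This gene had 6.54, 7.76 and 6.99 CPM in V1 libraries at HS6h, against 2.30, 2.25 and 3.57 CPM in KO libraries. At T48 it had 0.205, 0.195 and 0.209 CPM in V1 libraries, which is 1 read in each, against 4.61, 6.46 and 1.12 CPM in KO libraries. Neither pair of groups overlapped, and the effects differed by 5.55 (SE 0.89, adjusted p = 7.36e-07). In the other direction, g14216 had 3.08, 0.584 and 2.72 CPM in V1 libraries at T48 and no counts in KO libraries, but 24.8, 22.2 and 28.0 CPM in V1 libraries and 19.2, 23.4 and 24.0 CPM in KO libraries at HS6h, where the groups overlapped. Its effect was lower at HS6h (adjusted p = 0.000229). For g5142 the difference of effects was -3.91 (SE 1.30, adjusted p = 0.0234), and it lost its call without V1 library 3, 46 or 48 (adjusted p of 0.0522, 0.0718 and 0.0741). Without V1 library 47 it was -6.14.

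To read the genes that KO cells had lost or gained in libraries that played no part in choosing them, genes at least 2-fold lower or higher in KO than in WT cells were taken from 1 treatment and their V1 effect was read in the other. The same KO line served in the choice and in the reading, so the 2 are not independent of that line. Of 406 genes lower in KO cells at T48, 355 were tested at HS6h. There 183 (51.5%) were higher in V1 than in KO cells and 15 (4.23%) were lower, against 18.0% and 15.1% of all genes tested. The median difference was 0.72, against 0.02 over all genes tested. Of 354 genes lower in KO cells at HS6h, 302 were tested at T48. There 146 (48.3%) were higher in V1 cells and 19 (6.29%) were lower, against 19.5% and 18.0% of all genes tested. The median was 0.55, against 0.05 over all genes. Taken for each V1 library against the KO mean on the log2(CPM + 0.5) scale, the first median lay between 0.64 and 0.70 and the second between 0.53 and 0.59.

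Genes raised in KO cells moved the other way, by smaller medians. Of 161 genes at least 2-fold higher in KO than in WT cells at T48, 150 were tested at HS6h, where 56 (37.3%) were lower and 18 (12.0%) higher in V1 than in KO cells, with a median of -0.40. Of 208 such genes at HS6h, 177 were tested at T48, where 72 (40.7%) were lower and 26 (14.7%) higher in V1 cells. Their median was -0.35. Over all genes tested, 15.1% were lower and 18.0% higher at HS6h, with a median of 0.02. At T48, 18.0% of all were lower and 19.5% higher, with a median of 0.05. Among genes at least 4-fold lower in KO cells, the median difference was 2.11 over 100 genes chosen at T48 and read at HS6h, and 1.44 over 79 genes chosen at HS6h and read at T48. In these stricter lists 63 of 100 and 54 of 79 genes were higher in V1 than in KO cells. Among genes at least 4-fold higher in KO cells, 49 chosen at T48 were tested at HS6h. There 16 were lower and 7 higher in V1 cells, with a median of -0.21, nearer 0 than that of the 2-fold list. Of 52 chosen at HS6h and tested at T48, 25 were lower and 4 higher, with a median of -0.73.

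**Figure D4:**
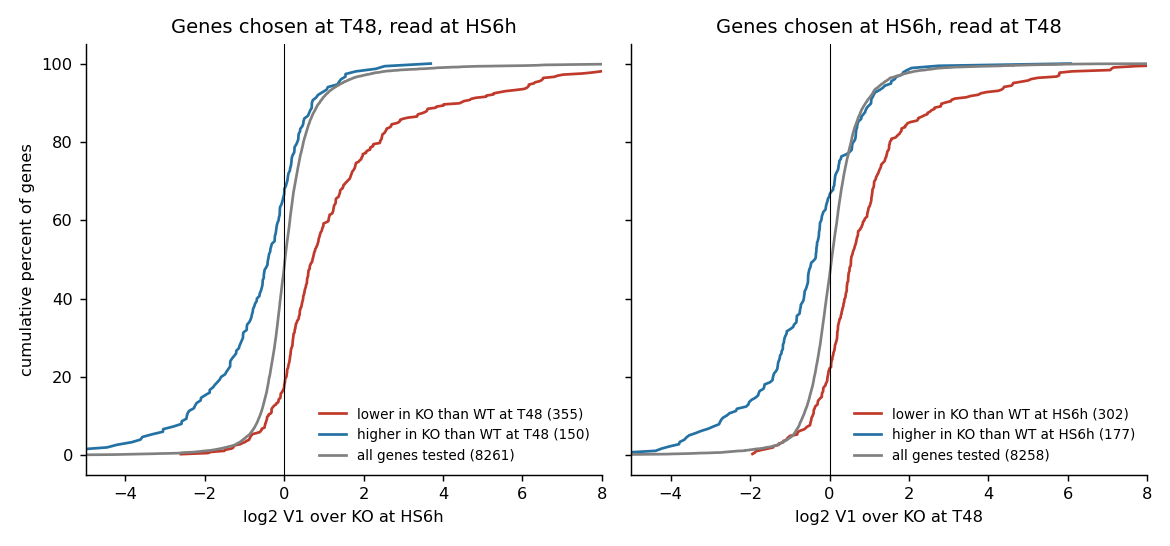
Cumulative percent of genes (vertical axis) by log2 difference of V1 over KO cells (horizontal axis, shown from -5 to 8), for genes chosen at T48 and read at HS6h (left) and chosen at HS6h and read at T48 (right). The red lines, genes at least 2-fold lower in KO than in WT cells, have medians of 0.72 and 0.55, the blue lines, genes at least 2-fold higher in KO cells, have medians of -0.40 and -0.35, and all genes tested (grey) have medians of 0.02 and 0.05.

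V1 cells did not have the RNA levels of WT cells in either treatment. At T48, V1 differed from WT cells in 2015 genes, 955 higher (11.6%) and 1060 lower (12.8%). At HS6h the numbers were 1157 higher (14%) and 938 lower (11.4%). The lists of the preceding paragraphs were also read in V1 against WT cells of the other treatment. Of the 355 genes lower in KO cells at T48, 112 (31.5%) were higher and 42 (11.8%) lower in V1 than in WT cells at HS6h, with a median of 0.22. Of the 302 genes lower in KO cells at HS6h, 60 (19.9%) were higher and 63 (20.9%) lower in V1 than in WT cells at T48, with a median of 0.01. Of the 150 genes higher in KO cells at T48, 59 (39.3%) were higher and 11 (7.33%) lower in V1 than in WT cells at HS6h. Of the 177 genes higher in KO cells at HS6h, 53 (29.9%) were higher and 20 (11.3%) lower in V1 than in WT cells at T48.

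The genes furthest above WT in V1 cells at HS6h were high in KO cells too. The gene g11936 had 98.4, 102.3 and 59.2 CPM in V1 libraries, against 94.1, 105.3 and 101.9 CPM in KO libraries and 0.376, 0.366 and 0 CPM in WT libraries. V1 and KO libraries overlapped, and V1 differed from WT cells by 8.37 (SE 0.31, adjusted p = 1.69e-33). At T48 the same gene had 119.0, 145.3 and 114.7 CPM in V1 libraries, 306, 312 and 322 CPM in KO libraries and 1.84, 1.67 and 2.28 CPM in WT libraries, so V1 cells lay between the other groups. The gene g12707 had 7.90, 7.54 and 11.0 CPM in V1 libraries and 7.16, 8.10 and 8.82 CPM in KO libraries at HS6h, and no counts in WT libraries.

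The reverse held for g8832 at HS6h, with no counts in V1 or KO libraries and 7.14, 5.86 and 9.33 CPM in WT libraries. It was at least 29.9-fold lower in V1 than in WT cells (adjusted p = 4.14e-07). The other gene named on that side, g3418, was described above and lay below both WT and KO cells. These levels were shared by V1 and KO cells for g11936, g12707 and g8832 at HS6h, and whether they came from the loss of HSF1 or from the line in which it was made cannot be told apart.

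At T48, other genes differed in V1 cells from KO and WT cells alike, and some of the lines with another added HSF1 form had similar levels. The gene g10530 had 38.4, 46.9 and 38.2 CPM in V1 libraries, against 0, 1.55 and 0.372 CPM in KO libraries and 0, 0.558 and 0 CPM in WT libraries. The ratio of V1 over WT was 234 (95% counting interval 64.6 to 1939), and the mean of the 6 other lines with an added HSF1 form ran from 55.8 to 82.0 CPM, above that of V1. The gene g6991 had 12.3, 17.1 and 11.7 CPM in V1 libraries, against 0.922, 0.258 and 0.186 CPM in KO libraries and 0.263, 0 and 0 CPM in WT libraries. V4 cells had a mean of 10.4 CPM of g6991, and the 5 other lines with an added form had means of 0.194 to 1.80 CPM. On the lower side, g2495 had no counts in V1 libraries, against 4.61, 1.55 and 0.372 CPM in KO libraries and 9.19, 8.93 and 8.85 CPM in WT libraries, which put V1 at least 44.3-fold below WT cells (adjusted p = 6.45e-09). V5-6 cells also had no counts of g2495, and V2, V3 and V4 cells had means of 0.162, 0.438 and 0.296 CPM.

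KO cells are not among the groups at R24, so the genes with the same V1 effect in both treatments were read there in V1 against WT cells. Over all 8929 genes tested at R24, 985 were higher (11%) and 868 lower (9.72%) in V1 cells. Library 29 of the V1 cells at R24 stood further from libraries 28 and 30 (10.2 and 9.72 times the variance that counting alone gives) than these did from each other (3.5 times). Of the 676 genes higher in V1 than in KO cells at T48 and HS6h, 672 were tested at R24, where 290 (43.2%) were higher and 53 (7.89%) lower in V1 than in WT cells. Of the 615 genes lower in V1 than in KO cells in both treatments, 614 were tested at R24, where 154 (25.1%) were lower and 34 (5.54%) higher in V1 cells. Without library 29, a setting chosen after the data were seen, 874 genes were higher and 790 lower in V1 than in WT cells at R24, and the shares were 40.0% higher for the first list and 25.7% lower for the second. The V1 line supplies all of these libraries. At R24, g5568 had 0.613, 0.891 and 0.607 CPM in V1 libraries, against 34.7, 34.4 and 34.3 CPM in WT libraries. The difference of V1 from WT was -5.61 at R24 (SE 0.34, adjusted p = 1.04e-11) and -5.53 at T48 (SE 0.39, adjusted p = 2.61e-22).

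V1 was set against each of the 8 other genotypes to find where it stood apart from all of them. The other genotypes are KO, WT and the knockout lines with the Pv isoforms V2, V3, V4 and V5-6 or with the Drosophila forms Dma and Dmb. Over these, the number of genes that differed from V1 at T48 ran from 1976 for V3 to 3676 for V2, and at HS6h from 1815 for V3 to 3876 for Dmb. At T48, 129 genes were higher (1.56%) and 96 lower (1.16%) in V1 than in every other genotype. At HS6h, 97 were higher (1.17%) and 43 lower (0.521%). In both treatments, 5 genes were higher than every other genotype, 3.88% of the 129 at T48 and 5.15% of the 97 at HS6h. Likewise 7 were lower in both, 7.29% of the 96 at T48 and 16.3% of the 43 at HS6h. Genes tested in only 1 treatment could not be called in both, which lowers some of these shares. Of the higher genes, all 129 from T48 but only 81 of the 97 from HS6h were tested in both treatments. Of the lower genes, 88 of the 96 from T48 and all 43 from HS6h were.

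**Figure D5:**
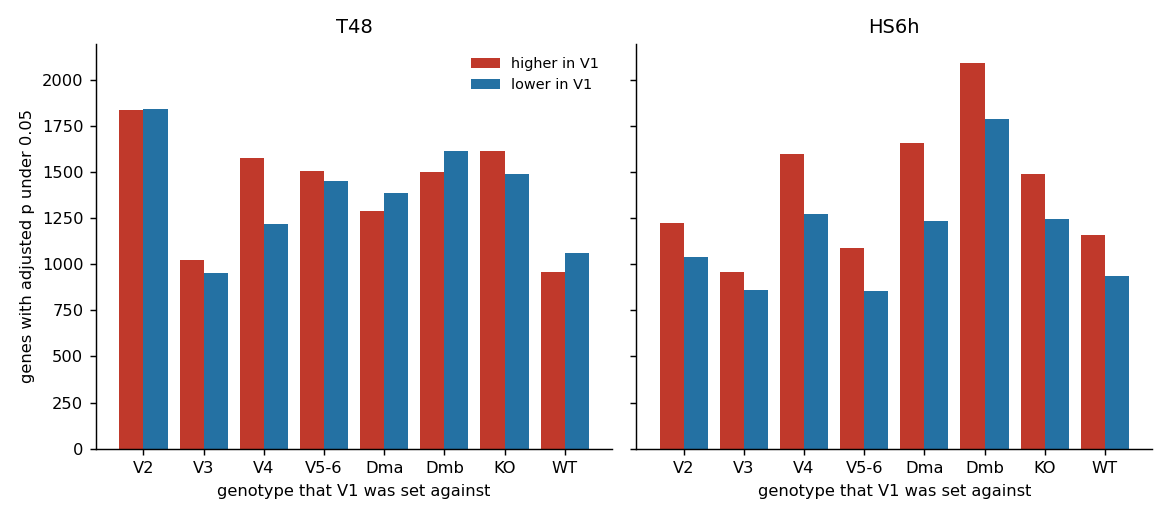
Number of genes with an adjusted p under 0.05 (vertical axis) that were higher (red) or lower (blue) in V1 cells than in each other genotype (horizontal axis), at T48 (left) and HS6h (right). V3 has the lowest total in both treatments, 1976 and 1815 genes, and WT follows at T48 with 2015.

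At T48, g14210 had 28.1, 25.7 and 24.0 CPM in V1 libraries, and the means of the other genotypes ran from 2.63 CPM in V5-6 to 6.87 CPM in WT cells. Its smallest difference from another genotype was 1.91 (largest adjusted p of the 8 = 2.79e-08). The gene g8231 had 14.0, 16.6 and 9.61 CPM in V1 libraries, with other means from 0.187 to 3.79 CPM (largest adjusted p of the 8 = 0.000202). This call was lost when the counts of a gene's transcripts were summed (adjusted p = 0.0657). On the lower side, g7524 had no counts in V1 libraries and means of 0.877 to 7.00 CPM elsewhere (largest adjusted p of the 8 = 0.00517).

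The gene g5632 was lower in V1 than in every other genotype in both treatments. At T48 it had 1.03, 0.195 and 1.88 CPM in V1 libraries, and the other means ran from 11.4 to 24.7 CPM (largest adjusted p of the 8 = 2.27e-14). At HS6h it had 1.63, 0.862 and 1.08 CPM in V1 libraries, and the other means ran from 11.9 to 43.4 CPM, the last in KO cells (largest adjusted p of the 8 = 1.41e-13). The 2 genes named as higher than every other genotype at HS6h were near 0 at T48. There g2852 had no counts in V1 libraries, against 6.27, 8.83 and 9.42 CPM in V1 libraries at HS6h, with other means at HS6h of 0.169 to 1.04 CPM. The gene g12494 had 10.6, 15.7 and 20.4 CPM in V1 libraries at HS6h, with other means of 1.14 to 2.41 CPM. The gene g11242, with 0.545, 1.29 and 0.538 CPM in V1 libraries and other means of 2.65 to 9.67 CPM at HS6h, lost its call without V1 library 46 or 48 (largest adjusted p of 0.102 and 0.106).

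The deposited table counts transcripts, and 12621 of 45294 tested at T48 (27.9%) and 9971 of 44893 tested at HS6h (22.2%) changed by at least 1.5-fold between V1 and KO cells in either direction. A read is listed under several transcripts of its gene, so their values are not independent and tend to move together by construction. Genes with 1 transcript called higher and another called lower at that size numbered 7 of 6203 genes with several transcripts tested at T48 and 3 of 6110 at HS6h, with 2 genes in both. One of these 2 was g7934, named after its values were seen. Its transcript t1 averaged 23.7 ± 6.3 CPM in V1 and 15.3 ± 1.7 CPM in KO cells at T48, a difference of 0.69 (SE 0.21, adjusted p = 0.00486). Its transcript t11 averaged 214 ± 22.7 CPM in V1 and 515 ± 49.3 CPM in KO cells, a difference of -1.21 (SE 0.10, adjusted p = 2.36e-15). For t1 at T48 the groups overlapped, with 16.7 CPM in the lowest V1 library and 17.1 CPM in the highest KO library. At HS6h the differences were 0.58 for t1 (SE 0.14, adjusted p = 0.00062) and -1.30 for t11 (SE 0.05, adjusted p = 8.35e-26).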

How the data were processed

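PolyA RNA was selected with magnetic beads and made into libraries with the NEBNext Ultra II kit, per the labels' protocols. The authors deposited raw counts of reads per transcript. FastQC 0.11.9, Trimmomatic 0.39, HISAT2 2.2.1 and HTSeq 2.0.9 were used, per the submitters' processing notes. The genome build, annotation and strand setting are not given in the sources used here, so overlapping genes, and genes antisense to each other, may have been counted for one another.

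Counts cover 65235 transcripts from 17156 genes. The 5 rows that name no gene entered neither library sizes nor tests, and the row of reads without a feature came to 39.0% to 43.3% of gene counts plus such reads in the 12 V1 and KO libraries. Transcripts sum to 19.5 to 25.6 times the gene counts, since a read is listed under several transcripts, so each gene is represented by its transcript with the highest total over all libraries. None of the IDs matched the 17863 loci of the reference table, so lists by function, markers and sequences were not used.

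Genes were filtered with filterByExpr, scaled by TMM and tested with the quasi-likelihood test of edgeR 4.0.16 (R 4.3.3) with Benjamini-Hochberg adjustment and a threshold of 0.05. All 27 libraries of T48 shared a fit, as did the 27 of HS6h, and the difference of effects used all 72. The R24 fit held the libraries of V1 and the 5 other genotypes sampled there. SE is the absolute log2 difference over the square root of F. CPM used TMM factors of all 72 libraries. Against a group without counts, folds are lower bounds at a floor of 3 counts over the group. Against a group with 1 to 3 counts, ratios have exact Poisson 95% intervals, which cover counting error only. The code was tested on simulated counts. At most 2 IDs per direction and comparison were named: the largest log2 differences with an adjusted p under 0.05, libraries that did not overlap and a mean of at least 5 CPM in a group. Genes that differed from every other genotype were ranked by their smallest difference. The members, lists and rules were chosen with earlier results of these data known. Alternatives were RLE scaling, the Wald test of DESeq2 1.42.0, no filter, summed transcripts, only the groups compared, a 4-fold list and each library left out, with R24 added after the data were seen.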

Additional observations from a re-analysis of the deposited data

Results flagged for a closer look

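The V1 effect differed between heat shock and trehalose in 1753 genes by the test of the difference itself, with edgeR's quasi-likelihood test at an adjusted p under 0.05. Of the genes named in the report, 9 were among them, and so was g3611. The V1 effect at HS6h minus that at T48 was 6.45 for g17054 (SE 0.78, adjusted p = 1.93e-10), 5.55 for g7411 (SE 0.89, adjusted p = 7.36e-07), -6.33 for g14216 (SE 1.36, adjusted p = 0.000229) and -3.91 for g5142 (SE 1.30, adjusted p = 0.0234). In g14216 the KO libraries at T48 held no counts, so the size of that difference depends on the fit's prior count and is no bound. The difference was 1.15 for g11936 (SE 0.16, adjusted p = 8.25e-09), -2.95 for g10530 (SE 0.70, adjusted p = 0.000908), -1.49 for g14210 (SE 0.42, adjusted p = 0.00559), -3.07 for g11242 (SE 0.53, adjusted p = 3.89e-06), 7.41 for g7524 (SE 1.96, adjusted p = 0.00322) and 0.64 for g3611 (SE 0.19, adjusted p = 0.0113). The V1 libraries at T48 held no counts of g7524, so its value is no bound either. No group has more than 3 libraries, so single libraries were not tested as outliers.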

How the results depend on the processing

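All 137 alternatives of the 10 counts and shares that answer a comparison at T48 or HS6h kept their value within 1.5 times. V1 against KO gave from 2733 to 2837 calls at T48 and from 2379 to 2513 at HS6h with a library left out, and from 2827 to 3106 and from 2417 to 2760 under the other settings. The difference of effects gave from 1512 to 1919 calls over its 17 alternatives. V1 against WT gave from 1682 to 2058 at T48 and from 1743 to 2110 at HS6h. The share of T48-reduced genes that were higher in V1 than in KO cells at HS6h ran from 42.0% without a filter on low counts to 63.0% in the 4-fold list. That of HS6h-reduced genes at T48 ran from 38.8% to 68.4% under the same 2 settings. The median log2 differences of these 2-fold lists moved more often against a narrower limit, the SD of the medians of the 3 V1 libraries. That of T48-reduced genes at HS6h ran from 0.61 to 0.82 and passed this limit in 6 of 16 alternatives. That of HS6h-reduced genes at T48 ran from 0.49 to 0.61 and passed it in 7 of 16. Genes with the same call in both treatments numbered from 1153 to 1306. Those that set V1 apart from every other genotype numbered from 176 to 241 at T48 and from 111 to 140 at HS6h. V1 against WT at R24 gave from 1490 to 1664 calls with a library left out, chosen after seeing the data. There the share higher of genes raised in both treatments ran from 36.6% to 40.0% and the share lower of those reduced in both from 21.3% to 25.7%. Without V1 library 48, which stood apart, V1 against KO at HS6h gave 2513 calls. No named gene changed direction, and the calls lost are those given above for g5142, g8231 and g11242. No paired analysis was made because the labels do not say whether libraries of different groups were handled together. Depth limits genes with a few reads per group, whose folds are bounds or wide intervals. The differences given for g7411, g3133 and g5142 rest on 3 or fewer reads in a V1 group. Those for g5365, g2495 and g7524 at T48 and for g8832 at HS6h rest on V1 groups without counts. At HS6h, g7524 had 9 reads in V1 and 6 in KO cells.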

Other observations

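Genes higher in V1 than in KO cells often had neighbouring ID numbers. At HS6h, 38.4% of such genes were followed by a gene with the next number that was higher too, against 18.0% after any gene tested, and at T48 the shares were 37.2% and 20.8%. For genes lower in V1 cells they were 26.6% and 15.6% at HS6h, and 31.8% and 17.6% at T48. Nothing in the labels tells whether ID numbers follow the order of genes along the genome, and near-identical copies that share reads were not tested.

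Beside g236 to g242, a run of 13 genes from g17480 to g17492 was higher in V1 than in KO cells at T48 and again at HS6h, and 11 of the 13 were lower in KO than in WT cells at T48. These genes held 0.204 ± 0.013% of gene counts in V1 cells, 0.0520 ± 0.0050% in KO cells and 0.103 ± 0.006% in WT cells at T48 (SD, n = 3 each), so every V1 library was above every WT library. At HS6h they held 0.0734 ± 0.0102% in V1 cells, 0.0181 ± 0.0016% in KO cells and 0.0312 ± 0.0021% in WT cells. The longest run at HS6h had 17 genes, from g16182 to g16198, of which 14 were lower in KO than in WT cells and 8 were also higher in V1 than in KO cells at T48. All runs were picked after the values were seen.

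Another gene picked after its values were seen, g3611, was above every KO and WT library in every V1 library. It had 1554, 1504 and 1589 CPM in V1 libraries at T48, against 539, 599.9 and 684 CPM in KO libraries and 462, 484 and 465 CPM in WT libraries. The other Pv isoform lines were high at T48 too, with means of 903 CPM in V2, 1235 CPM in V3, 1034 CPM in V4 and 1184 CPM in V5-6 cells. At R24 it had 3090, 1937 and 3755 CPM in V1 libraries, against 164, 149.7 and 169 CPM in WT libraries, and V4 and V5-6 cells had means of 3572 and 3172 CPM.

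Abundant genes were called more often than scarce ones. At T48, 86.4% of the 301 genes at 500 CPM or more differed between V1 and KO cells, against 19.7% of the 1570 genes under 5 CPM. At HS6h the shares were 64.4% of 312 genes and 16.6% of 1648 genes. The called abundant genes changed by less than the called scarce ones. Their median absolute log2 difference was 0.60 against 2.09 at T48, and 0.38 against 2.15 at HS6h. The shares called thus do not show that abundant genes changed more.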
